A study of Mus musculus with 6 samples.

Results

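Of the regulatory elements that were matched between control and IFN-γ-treated mouse oligodendrocyte precursor cells (OPCs), 268 of 16855 had at least 2-fold higher activity after IFN-γ. They are described here with the genes they were predicted to act on. An element is a stretch of open chromatin listed in the deposited predictions of the activity-by-contact (ABC) model, and its activity is the model's signal from ATAC-seq and H3K27ac CUT&RUN. There were 33083 elements listed for Ctr-OPCs and 35906 for IFN-γ-OPCs. An element of one table was matched to an element of the other when each was the other's best overlap and the overlap covered at least 50% of both. Matched elements were 50.9% of the Ctr-OPC and 46.9% of the IFN-γ-OPC elements. The 268 doubled elements were selected on measured activity, so their activity values, and the scores computed from them, are given as a description without a test.

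Both groups came from primary OPCs of genotype Sox10-Cre/RCE, given as strain C57BL/6j in the labels. Per the methods, the RCE parents were of a mixed background of C57BL/6 and CD1. In these mice Cre driven by Sox10 switches on GFP in the oligodendrocyte lineage. Per the study's methods, brains of pups at postnatal days 4 to 6 were pooled for each culture and OPCs were isolated by GFP or by CD140a. Both groups shared a proliferation medium with bFGF and PDGF-AA, and IFN-γ-OPCs received 100 ng/mL IFN-γ in it from 24 h after passaging, for 48 h by the methods. Each group had 3 H3K27ac HiChIP libraries of 6 in all, which the authors pooled into 1 table per condition. No value below therefore has a replicate error, and no test between conditions could be run. Intervals are 95% intervals over elements or pairs (Wilson for shares, order statistics for medians). They cover counting error only, elements of a locus are not independent, and read depth is unknown from these tables. Of 30 OPC lineage genes, 27 were target genes of matched elements in IFN-γ-OPCs, beside 8 of 20 microglia markers and 8 of 10 astrocyte markers. Aif1, Tmem119, Itgam and Tyrobp, which define microglia, were not among them.

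IFN-γ signals through a receptor with JAK kinases to genes with gamma-activated sites (GAS), and the IRF factors induced by it bind interferon-stimulated response elements (ISRE) there and at later targets. Active enhancers are open and flanked by nucleosomes with H3K27ac, and the ABC model ranks an enhancer for a gene by its activity times its contact with the promoter, as a share of the total of all elements around that gene.

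Short windows of the elements with the largest ratios show what such motifs look like there. GAS was searched as TTCNNNGAA and an ISRE-type motif as GAAANNGAA, on both strands, in the central 500 bp of each element. Each window below is written 5′ to 3′ on the strand that reads the motif, from the RefSeq sequence of GRCm38.p6 (mm10), with the motif in capitals. They lie in an intron of Art3 near the chemokine gene Cxcl10 (chr5) and between Tap2 and H2-Ob in the class II region of the MHC (chr17:34218922-34218994). Others lie in an intron of H2-Ab1 (chr17:34261516-34261641), in an intron of Cx3cr1 (chr9) and on chromosome 10, 352 kb from the nearest protein-coding start site.
Cxcl10 element, GAS, chr5:92353660-92353708, plus strand: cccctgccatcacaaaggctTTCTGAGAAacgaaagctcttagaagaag
Cxcl10 element, ISRE-type, chr5:92353536-92353584, minus strand: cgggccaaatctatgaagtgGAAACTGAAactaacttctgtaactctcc
Tap2 element, first GAS, chr17:34218922-34218970, plus strand: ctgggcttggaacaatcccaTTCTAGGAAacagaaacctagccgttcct
Tap2 element, second GAS, chr17:34218946-34218994, plus strand: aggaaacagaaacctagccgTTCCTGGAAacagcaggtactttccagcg
H2-Ab1 element, GAS, chr17:34261593-34261641, plus strand: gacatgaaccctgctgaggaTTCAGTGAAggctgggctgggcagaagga
H2-Ab1 element, ISRE-type, chr17:34261516-34261564, minus strand: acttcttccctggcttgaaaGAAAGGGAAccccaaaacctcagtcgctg
Cx3cr1 element, first GAS, chr9:120002120-120002168, plus strand: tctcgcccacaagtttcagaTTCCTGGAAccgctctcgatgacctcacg
Cx3cr1 element, second GAS, chr9:120002172-120002220, plus strand: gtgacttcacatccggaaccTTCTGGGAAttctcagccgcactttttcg
Chromosome 10 element, ISRE-type, chr10:66743728-66743776, minus strand: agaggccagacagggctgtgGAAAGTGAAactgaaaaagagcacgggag

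The doubled elements were weak before treatment and moderate after it. Their median activity was 0.588 (0.527 to 0.621) in Ctr-OPCs, with a range of 0.156 to 2.15, and 1.41 (1.26 to 1.51) with IFN-γ, with a range of 0.345 to 5.94. The median over all matched elements was 1.103 in Ctr-OPCs and 1.07 with IFN-γ, so the doubled elements moved from below to above the typical element. In these bulk tables, higher activity per cell and activity in more cells cannot be told apart. They made up 1.59% of matched elements, while 195 elements had activity lowered at least 2-fold. Most doubled elements lay close to the threshold. The log2 ratio of activity, IFN-γ-OPCs over Ctr-OPCs, was 1 to 1.1 for 96 of them, 1.5 to 2 for 32 and at least 2 for 8, with a median of 1.15. Just inside the threshold were elements in Kcnq5 (1.21 to 2.42), Uchl1 (0.252 to 0.504) and Mbnl1 (0.425 to 0.853). Just outside it were an element in Pcdh9 (0.427 to 0.854) and an intergenic element linked with Snx13 and Hdac9 (0.418 to 0.836). Between log2 ratios of 0.9 and 1 there were 131 further elements.

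**Figure D1:**
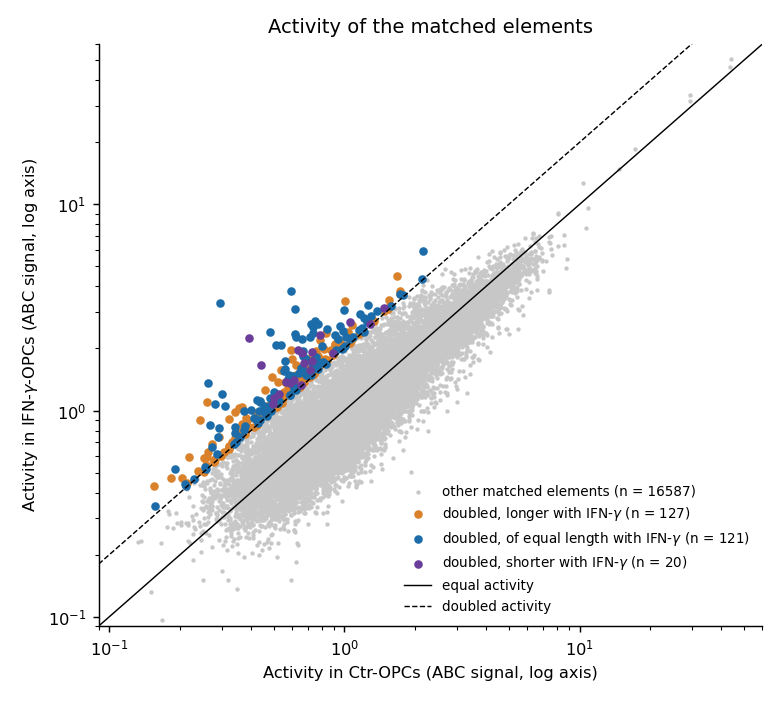
Activity of each matched element in Ctr-OPCs (x) and IFN-γ-OPCs (y), both in ABC signal on log axes, with doubled elements coloured by whether the IFN-γ-OPC element was longer, equal or shorter in length. The doubled elements sit above the dashed line of 2-fold activity, mostly at a Ctr-OPC activity below 1, and few lie far above it.

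Whether activity was divided by element length is not given in the sources used here, and length differed between conditions. Elements of exactly 500 bp, the shortest length listed, were 51.7% of those in Ctr-OPCs and 61.4% of those in IFN-γ-OPCs. Among the doubled elements, 127 (47.4%) were longer in the IFN-γ-OPC table, 121 were equal in length and 20 (7.46%) were shorter. Over all matched elements 16.0% were longer, 59.4% equal and 24.6% shorter. Activity doubled in 4.70% of the 2700 elements that were longer with IFN-γ, in 1.21% of the 10004 of equal length and in 0.482% of the 4151 that were shorter. Elements with activity lowered at least 2-fold followed the opposite order, with 0 of 2700 among the longer (upper bound 0.142%), 16 among the equal and 179 among the shorter ones. Per bp of element, 266 matched elements had a log2 ratio of at least 1, of which 147 were among the 268, and 53 had a ratio of -1 or less. The part that length had in the ratios of the other elements was not tested, so the 121 elements of equal length are given separately below.

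**Figure D2:**
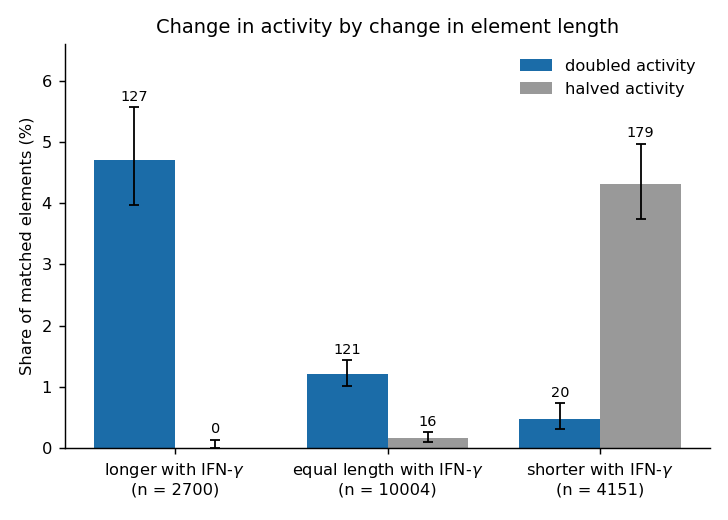
Share of matched elements (%) whose activity at least doubled (blue) or fell at least 2-fold (grey), by whether the element was longer, equal or shorter in the IFN-γ-OPC table, with Wilson 95% intervals and counts above the bars. Doubling was most frequent among elements that were longer with IFN-γ, at 127 of 2700, and least among the shorter ones, at 20 of 4151.

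A matched Ctr-OPC element was not always the only one at the site. Another Ctr-OPC element overlapped 36 of the doubled elements (13.4%), compared with 2.05% of all matched elements. Against the most active overlapping Ctr-OPC element, 249 of the 268 kept a log2 ratio of at least 1, including all 121 of equal length.

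The element with the largest ratio lay in an intron of Art3, 4.84 kb from the start site of Cxcl10, a CXCR3 chemokine that attracts T cells (chr5:92353477-92353976). Its activity was 0.296 in Ctr-OPCs and 3.31 with IFN-γ, 11.2-fold higher (log2 ratio 3.48). A second Ctr-OPC element overlapped it, and against that more active element the log2 ratio was 2.72. Its ABC score for Cxcl10 went from 0.0225 to 0.180, with a log2 ratio of adjusted contact of 0.22. It had 1 target gene in Ctr-OPCs and 10 with IFN-γ. Among those listed with IFN-γ only were Cxcl9, another CXCR3 chemokine, at 25.65 kb with a score of 0.0787, Cxcl11, and the neighbouring genes Art3 and Sdad1.

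The next element was intergenic in the MHC class II region (chr17:34218623-34219122), with activity of 0.593 in Ctr-OPCs and 3.78 with IFN-γ. It gained 4 target genes of MHC class I antigen processing. These were Tap2 (score 0.0388, 15.35 kb), Tap1 and Psmb9 (both 0.0294) and Psmb8 (0.0338), which encode the peptide transporter and subunits of the immunoproteasome. All of them were below the score of 0.05 above which the study's methods take a pair as a connection. An intronic element of Bcl3, an atypical IκB protein that acts with NF-κB dimers, came next (chr7:19817297-19817796). Its activity was 0.393 in Ctr-OPCs and 2.25 with IFN-γ although it was shorter with IFN-γ (632 to 500 bp), and it was connected to Bcl3 in IFN-γ-OPCs only (score 0.0708). An intronic element of Atp10a (chr7:58749832-58750331) had 0.263 and 1.36.

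The fifth element lay in an intron of H2-Ab1, which encodes the beta chain of the class II molecule I-A (chr17:34261470-34261969). Its activity was 0.614 in Ctr-OPCs and 3.10 with IFN-γ, its score for H2-Ab1 went from 0.0206 to 0.0769, and H2-Aa (0.0228) and H2-Eb1 (0.0269) were listed with IFN-γ only. The sixth lay in an intron of Cx3cr1 (chr9:120001924-120002423), a chemokine receptor used as a microglia marker, with activity of 0.484 and 2.41. Cx3cr1 was not among its targets, and Csrnp1 was its protein-coding target in IFN-γ-OPCs (score 0.0322, 17.5 kb). The remaining elements of the 10 with the largest ratios were in an intron of Epha5 (0.260 to 1.11), near Tmem212 (0.510 to 2.08), 352 kb from Jmjd1c (0.301 to 1.204) and over a non-coding exon in Mgll (0.537 to 2.08). The Epha5 element was longer with IFN-γ (500 to 791 bp), and those near Tmem212 and Jmjd1c and in Mgll were equal in length.

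The elements with the highest activity after IFN-γ were another set, apart from the Tap2 element. The most active was intergenic at 5.34 kb from Tvp23a (chr16:10452455-10452954), with 2.15 in Ctr-OPCs and 5.94 with IFN-γ. It was linked with Ciita, the transactivator of MHC class II genes, at 27.4 kb. The score for Ciita went from 0.0426 to 0.0612 and passed 0.05, while adjusted contact with Ciita was lower with IFN-γ (log2 ratio -0.28). Neither a GAS nor an ISRE-type motif was in its window. An element over a coding exon of Gadd45g, a stress-response gene, had 1.68 and 4.52 and was longer with IFN-γ (813 to 1590 bp). Elements over a coding exon of Smarcd3, a subunit of chromatin remodelling complexes (2.14 to 4.34), and in an intron of the lysine methyltransferase gene Setd7 (1.73 to 3.79) followed. The Setd7 element had the most target genes, 12 in IFN-γ-OPCs against 3 in Ctr-OPCs. The Smarcd3 element, the Cxcl10 element and an intronic element of Junos linked with Jun were among 5 elements with 10 each.

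Genes known to respond to interferon were targets of few doubled elements. Every matched element was classed genic or intergenic, so changes at elements classed as promoters could not appear. Over 6 lists of JAK-STAT and IRF factors, MHC class I, MHC class II, interferon-inducible GTPases, antiviral genes, and chemokines with ligands and cell death genes, 11 doubled elements had a listed target in IFN-γ-OPCs. That was 4.10% (2.31 to 7.20%), against 118 (0.700%) of all matched elements and none of the 195 lowered ones (upper bound 1.93%). Of the 11, 9 had a score above 0.05 for such a gene. A target is listed with IFN-γ only if the element's activity there is high enough. Listed genes also had a promoter activity quantile (the rank of the gene's promoter) of at least 0.4. The part of this second limit in gained targets was not tested. These counts, and those for single lists below, partly follow from the selection and are a description. By the targets listed in Ctr-OPCs, 8 doubled elements (2.985%, 1.52 to 5.78%) had such a gene, against 125 (0.742%) of all matched elements. The median log2 ratio was 0.14 over the 118 elements listed with IFN-γ and 0.06 over the 125 listed in Ctr-OPCs, compared with -0.07 over all matched elements.

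The MHC class II list held 5 of the 11. With IFN-γ, 9 matched elements had a class II target and 5 of them were doubled (median log2 ratio 1.30). By the Ctr-OPC targets, 4 of 8 were doubled (median 0.84), against 1.59% of all matched elements. Besides the elements at H2-Ab1, Ciita and Tap2 (which was also linked with H2-Ob), an intergenic element 3.96 kb from H2-Aa had activity of 1.05 in Ctr-OPCs and 2.70 with IFN-γ although it was shorter with IFN-γ (834 to 500 bp). Its score for H2-Aa went from 0.0422 to 0.0892 with a log2 ratio of contact of 0.36, while contact with H2-Eb1 had -0.43. A second element of H2-Ab1, over a coding exon, had 0.986 and 2.43 and a score for H2-Ab1 of 0.0331 and 0.0601. It was named after its values were seen.

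Of 39 matched elements with a target in the chemokine, ligand and cell death list, 4 were doubled (10.3%). By the Ctr-OPC targets 3 of 43 were (6.98%), against 1.59% of all matched elements. The median log2 ratio was -0.02 by either listing. Of these 4, 3 lay in introns of Art3 and were linked with Cxcl9, Cxcl10 or Cxcl11. The second had activity of 1.08 and 2.60 (500 to 876 bp) and a score for Cxcl11 of 0.0991 and 0.138, with a log2 ratio of contact of -0.18. Another had 0.499 and 1.23, and scores for Cxcl11 of 0.0366 and 0.0502 with a log2 ratio of contact of -0.23. The fourth, named after its values were seen, was intergenic on chromosome 2 (chr2:84831721-84832220, 0.846 to 2.48) and gained the complement inhibitor gene Serping1 (score 0.0286, 56.5 kb) and Ube2l6, which encodes the conjugating enzyme for ISG15 (0.0311).

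Class I and antiviral genes were targets of few doubled elements, and the lists differ in size. Over all matched elements, 1.59% were doubled. Of 15 matched elements with an MHC class I target, 2 were doubled (13.3%, median log2 ratio 0.15), and by the Ctr-OPC targets 1 of 14 (7.14%, median 0.09). Apart from the Tap2 element, the doubled one was an element near H2-T24 (0.820 to 1.99, 500 to 721 bp) with a score for H2-T24 of 0.0330 and 0.0776, which gained H2-T23. Of 35 with an antiviral target, 1 was doubled (2.86%), an intronic element of Vps50 (0.439 to 1.103). It was connected with Samd9l 100.9 kb away in IFN-γ-OPCs only (score 0.0619). Although few were doubled, 28 of the 35 had a ratio above 0, with a median of 0.25. By the Ctr-OPC targets none of 40 was doubled, and 26 had a ratio above 0, with a median of 0.12. None of the 20 matched elements of JAK-STAT and IRF genes (18 by the Ctr-OPC targets) was doubled, and their highest log2 ratio was 0.83. With so few elements, none cannot be told from the 1.59% over all matched elements. The single matched element listed with IFN-γ for an interferon-inducible GTPase, Gbp5, had 0.97, and of 3 listed in Ctr-OPCs none was doubled.

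Over all matched elements, 1.59% were doubled. Among the other lists, 2 of 14 matched elements of NF-κB genes (14.3%) were doubled, both linked with Bcl3, and 1 of 14 by the Ctr-OPC targets (7.14%). The second lay 1.42 kb from its start site with activity of 0.463 and 1.01 (822 to 1428 bp). Of 35 elements of AP-1 and immediate early genes, 1 was doubled (2.86%), near the 1.59% over all matched elements. This was the Junos element (1.00 to 3.38, 500 to 909 bp), whose pair with Jun was listed with IFN-γ only (score 0.0262). By the Ctr-OPC targets, none of 31 was doubled. None of 83 elements of OPC lineage genes, 11 of microglia markers or 22 of astrocyte markers was doubled. These numbers are too small to tell none from 1.59%, the share over all matched elements. The median log2 ratios of these lists were -0.13, -0.13 and -0.10. By the Ctr-OPC targets, where none was doubled either, they were -0.20, -0.13 and -0.16.

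**Figure D3:**
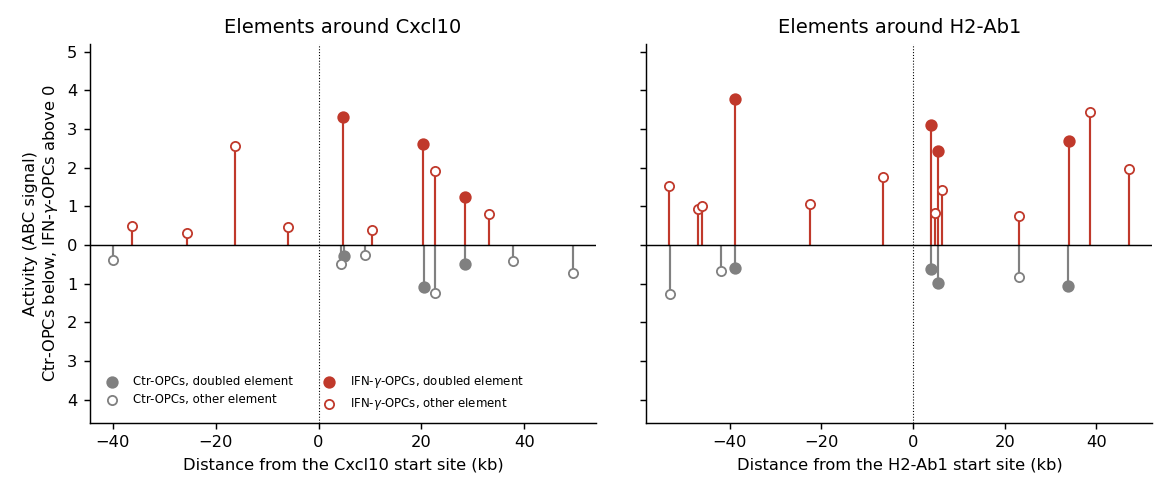
Activity (ABC signal) of elements around the start sites of Cxcl10 (left) and H2-Ab1 (right) by distance in kb, with IFN-γ-OPCs in red above 0 and Ctr-OPCs in grey below 0, and doubled elements as filled points. Around Cxcl10, 3 doubled elements reach 3.31, 2.60 and 1.23 with IFN-γ, and IFN-γ-OPC elements without a match, such as one at -16.2 kb with 2.56, stand beside them.

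Both loci in the map of activity by distance held groups of doubled elements. Within 50 kb in Art3, 3 of 4 matched elements were doubled. In the MHC class II region, 3 of 3 matched elements were doubled between the Tap2 element and the second H2-Ab1 element, and 3 of 4 between the first H2-Ab1 element and that near H2-Aa. Highly active elements without a match were not counted, such as one 38.6 kb from H2-Ab1 with an activity of 3.43 in IFN-γ-OPCs. Elsewhere groups were pairs at most. The nearest matched neighbour of a doubled element had a median log2 ratio of 0.09 (0.02 to 0.17) and was above 0 for 57.5%, compared with 42.3% over all matched elements. It was itself doubled for 13 of 268 (4.85%), against 1.53% of all matched elements. Over chromosomes, 0.861 to 2.31% of matched elements were doubled.

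By class, 173 of the 268 doubled elements were genic in the deposited tables (64.6%, 58.7 to 70.0%) and 95 were intergenic. The genic share was 68.7% over all matched elements, 65.0% over 4329 other elements whose Ctr-OPC activity lay between the quartiles of the doubled ones, and 75.9% over the lowered ones. It differed by length. Of the doubled elements of equal length 57.02% (48.1 to 65.5%) were genic, compared with 67.6% of all matched elements of equal length, and of those longer with IFN-γ 74.0% were, compared with 71.3% of all matched elements that were longer. Among elements of equal length, 1.02% (0.808 to 1.29%) of the genic and 1.60% (1.22 to 2.10%) of the intergenic ones were doubled, and these intervals overlapped. By annotation, 119 doubled elements were intronic (44.4%), 26 overlapped a coding exon (9.70%, against 14.4% of all matched elements) and 7 a UTR (2.61%, against 6.69%).

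Every matched element was classed genic (11586) or intergenic (5269), so elements classed as promoters are not covered. The distance of doubled elements from protein-coding start sites differed with length. For those of equal length the median distance to the nearest protein-coding start site was 37.0 kb (23.8 to 69.9), and 2 of 121 lay within 2 kb, one in Pde5a and one near Ctnnal1, both named after their values were seen. Over all matched elements of equal length the median was 18.25 kb. For the 127 that were longer with IFN-γ it was 11.6 kb (7.502 to 18.6), and 14 (11.02%, 6.68 to 17.65%) lay within 2 kb, against 14.1 kb (12.9 to 15.6) and 9.74% (8.68 to 10.9%) over all 2700 matched elements that were longer. For both values these intervals overlapped. For all 268 the median was 20.9 kb (15.2 to 29.6) against 16.7 kb, and GC content was 47.6% against 50.6%. Genic and intergenic doubled elements had median log2 ratios of 1.17 and 1.13. A GAS or ISRE-type motif was in 48.6% and 50.5% of them, and a connection after IFN-γ was held by 69.4% and 68.4%. For each of these values the intervals of the classes overlapped. A protein-coding target was found for 68.2% (60.9 to 74.7%) of genic and 57.9% (47.85 to 67.3%) of intergenic ones, and these intervals overlapped too.

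Interferon-type motifs were more frequent in doubled elements than in the other matched elements. In the central 500 bp, 72 (26.9%, 21.9 to 32.5%) had a GAS motif, against 14.6% of all matched elements and 13.3% of the lowered ones. An ISRE-type motif was in 89 (33.2%, 27.8 to 39.1%), against 14.9% and 6.67%. Either motif was in 132 (49.25%), against 27.03% of all matched elements and 28.5% of those with like activity in Ctr-OPCs. Matches of the motifs can overlap, as an ISRE-type match in the Tap2 element did with its first GAS. Both were in 29 (10.8%), against 2.46%. An AP-1 motif (TGANTCA) was in 19.8% (15.5 to 24.96%), against 15.1%. A SOX motif (ACAATGG) was in 6.72% against 7.83%, an E-box (CAGCTG) in 36.9% against 39.4%, a TEAD motif (GGAATG) in 23.9% against 26.15% and a PU.1-type motif (GAGGAAGT), named for a myeloid factor, in 2.61% against 3.64%.

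The share with GAS or ISRE-type motifs rose with the ratio, also among elements of equal length. It was 19.0% at log2 ratios of -1 or less, 24.5% from -0.5 to 0, 28.8% from 0 to 0.5, 36.9% from 0.5 to 1, 46.9% from 1 to 1.5, 59.4% from 1.5 to 2 and 6 of 8 above 2. Among elements of equal length it was 5 of 16 at -1 or less, the exception to the rise, then 24.05% from -0.5 to 0, 40.1% from 0.5 to 1, 48 of 96 from 1 to 1.5, 13 of 19 from 1.5 to 2 and 6 of 6 above 2. The 121 doubled elements of equal length had either motif in 55.4% (46.5 to 63.9%), against 27.6% of all matched elements of equal length. The share was 37.0% (29.1 to 45.7%) for the 127 that were longer with IFN-γ, against 26.15% of all that were longer. It was 18 of 20 (69.9 to 97.2%) for the few that doubled although they were shorter, against 26.3% of all that were shorter. The 2 shorter ones without either motif were the Bcl3 intron element and one linked with Spag11a, a defensin-related gene, the latter chosen after its values were seen. Of the 10 elements with the largest ratios 8 had either motif, and the exceptions were those in Bcl3 and Epha5.

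**Figure D4:**
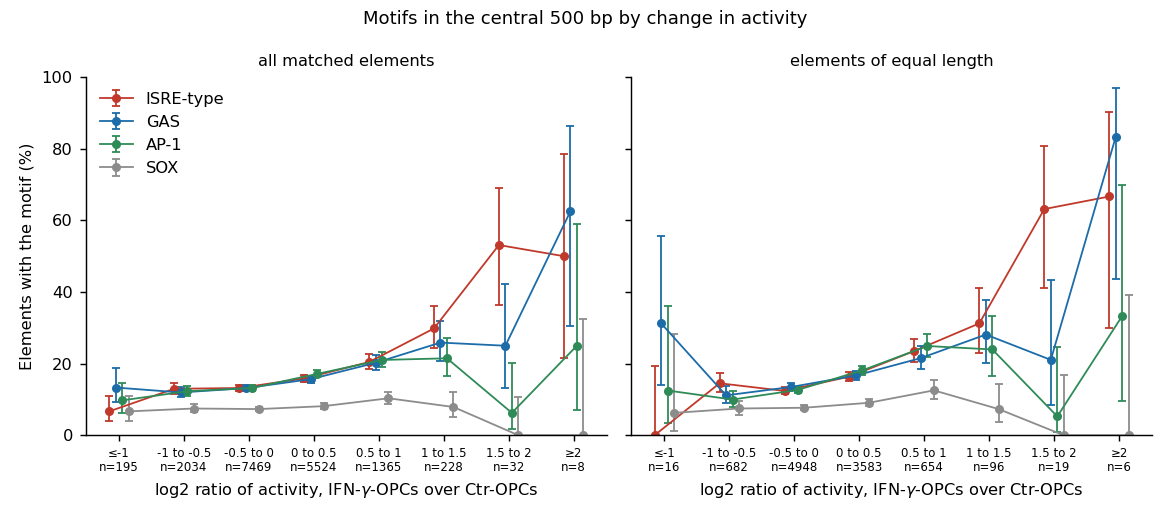
Share of matched elements (%) with ISRE-type, GAS, AP-1 or SOX motifs in the central 500 bp by the log2 ratio of activity, for all matched elements (left) and those of equal length (right), with Wilson 95% intervals and n below each bin. GAS and ISRE-type shares go from below 20% at negative ratios on the left to 62.5% and 50% in the last bin of 8 elements, and SOX shares stay between 0 and 10.3% there.

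Doubled elements had more predicted target genes after IFN-γ. Scores are computed from the activity on which the elements were selected. Pairs are listed from a score of 0.02 and a promoter activity quantile of 0.4, so these counts are a description. The doubled elements had 370 pairs in Ctr-OPCs and 824 with IFN-γ, a mean of 1.38 and 3.08 target genes each. Of the 268, 174 (64.9%) had more target genes with IFN-γ and 8 had fewer, compared with 25.4% with more over all matched elements. A connection, a pair with a score above 0.05, was held by 50 (18.7%) in Ctr-OPCs and 185 (69.0%) with IFN-γ, while over all matched elements the share was 33.8% and 35.1%. In 137 elements (51.1%) the connection was found with IFN-γ only. In 2 it was lost, an intronic element of Dip2c and an intergenic element on chromosome 1, both chosen after their values were seen and both linked with predicted genes only. The strongest pair of a doubled element had a median score of 0.0303 in Ctr-OPCs and 0.0659 with IFN-γ.

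Of 786 target genes in IFN-γ-OPCs, 314 were protein-coding, compared with 10413 of the 21553 targets of all matched elements. Of the 786, 147 were not listed as a target of any element in Ctr-OPCs, compared with 3715 of the 21553. At least 2 doubled elements shared 31 of the targets. At least 1 protein-coding target was present for 113 elements (42.2%) in Ctr-OPCs and 173 (64.6%) with IFN-γ, against 62.5% and 64.0% of all matched elements. The nearest protein-coding gene was among the targets for 149 (55.6%), close to the 55.5% of all matched elements. Of the genic ones, 112 of 173 (64.7%, 57.4 to 71.5%) had the gene that held them as a target, against 59.0% over all matched elements. The targets of 3 doubled elements each were Art3, Cxcl9, Cxcl11, Sdad1, Gm2673, H2-Eb1 and Gm20513.

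Of 891 pairs of doubled elements in either table, 303 were listed in both (34.01%), 521 in IFN-γ-OPCs only (58.5%) and 67 in Ctr-OPCs only (7.52%). Over all matched elements these shares were 45.4%, 27.9% and 26.75%. The median distance from element to start site was 6.68 kb in Ctr-OPCs and 32.1 kb with IFN-γ, against 24.7 and 25.1 kb over all matched elements. Pairs listed in both had a median of 5.68 kb and those with IFN-γ only 78.5 kb (66.2 to 90.7). Over all matched elements the pairs with IFN-γ only were longer, with a median of 133.4 kb (128.1 to 138.4), and over elements of like activity in Ctr-OPCs they had 51.2 kb (45.5 to 59.1). Of the pairs with IFN-γ only, 6 spanned less than 5 kb and 103 at least 500 kb. Over all their pairs, these elements of like activity, which did not double, had medians of 6.07 kb in Ctr-OPCs and 6.52 kb with IFN-γ.

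Contact could be compared between conditions only for pairs listed in both tables, which had to reach a score of 0.02 in each. An element that is weak in one condition is listed there only with enough contact, so the ratios of contact are not independent of the selection on activity and are a description. The part of this limit in the values below was not tested. Over the 303 pairs listed in both tables the median adjusted contact was 0.0396 in Ctr-OPCs and 0.0377 with IFN-γ. The median log2 ratio was -0.13 (-0.15 to -0.05, SD over pairs 0.50), compared with 0.05 over 26751 pairs of all matched elements and 0.16 over 229 pairs of the lowered ones. With elements chosen on activity per length it was -0.06 (-0.13 to 0.03), and at an overlap of at least 80% the interval was -0.19 to 0.04, both including 0. Contact was higher with IFN-γ in 122 of the 303 pairs (40.3%), against 54.25% over all. It was at least 2-fold higher in 4 pairs (1.32%, against 3.18% over all) and at least 2-fold lower in 15 (4.95%, against 1.94%). The score of these pairs rose in 292 of 303, by a median of 1.04 on the log2 scale. The total of the target gene was higher in 65.0%, against 36.6% over all.

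The median ratio of contact varied with distance. At 5 kb or less the median log2 ratio was -0.02 (-0.13 to 0.09) over 135 pairs, over 5 to 10 kb it was -0.05 (-0.13 to 0.05) over 92, and above 10 kb -0.36 (-0.51 to -0.26) over 76. For elements of equal length above 10 kb it was -0.43 over 46 pairs. Lowered elements had the opposite sign, 0.47 (0.20 to 0.61) over 56 pairs above 10 kb. By length, the median log2 ratio was -0.13 for elements of equal length, -0.12 for the longer ones and 0.22 (-0.19 to 0.56) for 23 pairs of the shorter ones.

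Contact of a single element could move both ways. An intergenic element on chromosome 12 (1.09 to 2.28) had a log2 ratio of contact of 1.04 with Gm47832, but of -1.93 with Gm34611 and -1.56 with Gm18442. Another pair that rose at least 2-fold, chosen after its values were seen, was that with Spag11a (1.04). The largest fall was that of an element over a coding exon of Slc17a6, a vesicular glutamate transporter gene. Its activity was 0.218 and 0.594, contact fell from 0.0539 to 0.0126 (log2 ratio -2.10), and the score was lower with IFN-γ (0.0351 and 0.0259).

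**Figure D5:**
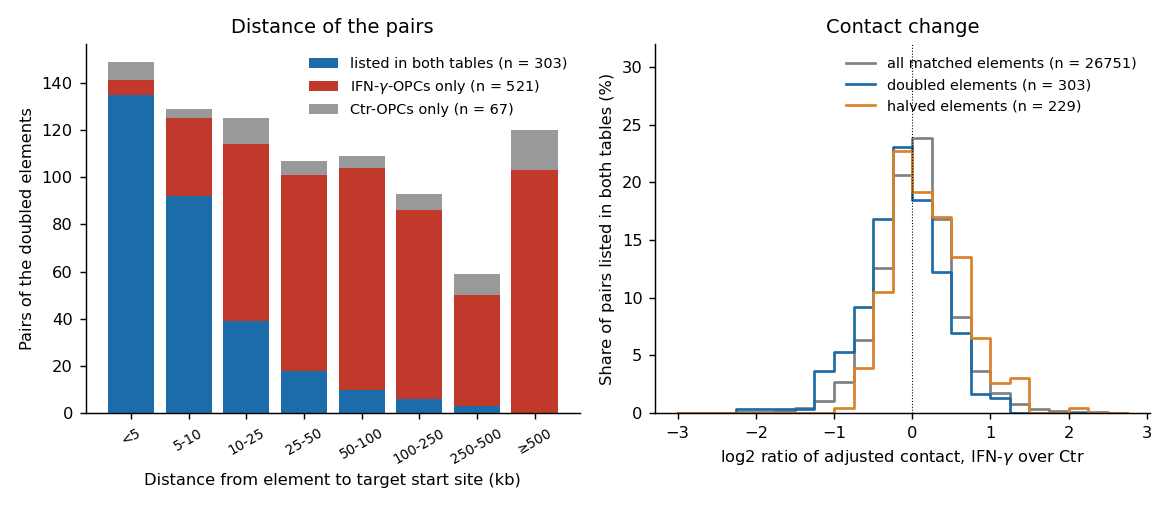
Left, number of pairs of doubled elements by distance from element to target start site (kb), listed in both tables (blue), with IFN-γ only (red) or in Ctr-OPCs only (grey). Right, share of pairs listed in both tables (%) by log2 ratio of adjusted contact, where the 303 pairs of doubled elements (blue, median -0.13) lie to the left of the 229 pairs of lowered elements (orange, median 0.16).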

How the data were processed

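H3K27ac HiChIP of cultured mouse OPCs was deposited as ABC model tables, 1 per condition, to which the labels assign all 3 libraries. Per the study's methods and the submitters' processing notes, HiC-Pro was used to map the reads (mm10) and remove duplicates, and ATAC-seq and H3K27ac CUT&RUN alignments gave activity. Activity is a coverage-based signal, computed by the authors with default parameters, and how they scaled it between conditions is not given in the sources used here. The deposited contact, adjusted contact and activity times contact are score values without a fixed range, with contact at 5 kb bins. The ABC score is a fraction, which the authors obtained as the share of a gene's total. The deposited tables start at 0.02 and at a promoter activity quantile of 0.4. Of 824 pairs of doubled elements, 7 had a deposited contact of 0, where adjusted contact rests on the pseudocount. The short tables and BEDPE lists held the same pairs.

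Unique elements were matched by mutual best overlap of at least 50% of both lengths, and those with a log2 ratio of activity of at least 1 were kept. Class came from the tables, gene types and annotation from GENCODE M21 (25689 of 25779 and 26510 of 26591 target genes matched), and sequence from RefSeq GRCm38.p6. No p-value was computed. The elements, gene lists, motifs and comparisons were chosen with earlier results of these data known. Named elements were the 10 with the largest ratio, the 5 most active with IFN-γ, the 3 with most target genes, up to 3 for each gene list by score, the 3 on each side of the threshold, and the 3 pairs with the largest rise and fall in contact. Some items that these rules name are not reported here. Matching was tested on simulated data. Software was pysam 0.24.0, samtools 1.23.1, SciPy 1.17.1, NumPy 2.4.6, pandas 2.3.3 and matplotlib 3.10.9 under Python 3.11.15.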

Additional observations from a re-analysis of the deposited data

How the results depend on the processing

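No paired analysis was possible because the values of a condition come as a single table without columns for its libraries, and for the same reason no library could be left out. Over 92 comparisons of a result with an alternative, 54 values stayed within their interval (or 1.5 times the count) and 38 did not. The number of doubled elements was 118 with an overlap of at least 80%, 514 with an overlap of at least 1 bp, 160 with a pseudocount of 0.1 on activity, 40 at a log2 ratio of at least 1.5 and 1242 at a ratio of at least 1.5-fold. It was 318 and 313 when the tables were scaled to equal median or equal quantiles. In the same order of the first settings, the genic share was 57.6% at 80% overlap and 70.4% at 1 bp. The share with a GAS or ISRE-type motif was 56.8% at 80% overlap, 39.5% at 1 bp, 55.6% with the pseudocount, 62.5% at a log2 ratio of at least 1.5 and 40.0% at 1.5-fold. The share with a connection was 81.25% with the pseudocount, 92.5% at a log2 ratio of at least 1.5, 52.6% at 1.5-fold, 75% with an activity of at least 1 in IFN-γ-OPCs, 24.25% at a score cut-off of 0.1 and 100% over all deposited pairs. An interferon gene was a target of 10% at a log2 ratio of at least 1.5 and of 2.17% at 1.5-fold. Only 218 elements had identical start and end in both tables, and just 1 of these was doubled (genic 100%, connection 0%, interferon gene 0%, motif 0%, log2 ratio of contact -1.11). With pairs above 0.05 only, the median number of target genes was 1 and the median distance 6.03 kb, and with protein-coding targets only the median number was 1. The median log2 ratio of contact was -0.36 for pairs over 10 kb. The motif share was 59.7% in the whole element and 27.2% in the central 200 bp.

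Alternatives chosen after seeing the data dealt with element length. With the same length in both tables there were 121 doubled elements, with a genic share of 57.02%, a median distance of 42.9 kb and a motif share of 55.4%. With activity per length there were 266, with a connection share of 62.4% and a motif share of 55.6%. The causes of these shifts were not tested. The median log2 ratio of contact was below 0 under every alternative run for it, but its interval included 0 with activity per length (-0.06, -0.13 to 0.03) and at 80% overlap (-0.13, -0.19 to 0.04), and the single doubled element with identical ends gave no interval.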

Other observations

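Both doubled and lowered elements were least frequent among the most active elements. By mean activity of both conditions, 2.14% of 1448 matched elements below 0.5 were doubled, 1.67% of 6178 from 0.5 to 1, 2.07% of 3628 from 1 to 1.5 and 1.68% of 2146 from 1.5 to 2. Above that the share was 0.954% from 2 to 3 and 0.221% (3 of 1358) at 3 or more. The share lowered at least 2-fold was 1.87% below 0.5, 0.668% from 2 to 3 and the same 3 of 1358 at 3 or more. The SD of the log2 ratio over elements went down over the same bins from 0.48 to 0.28.

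The promoter activity quantile, the rank of a target gene's promoter in the deposited tables, was listed in both tables for 639 of the 786 targets of doubled elements. Its median change with IFN-γ was 0.00891 (0.00441 to 0.0129), against -0.000407 (-0.00103 to 0.000108) over 17838 targets of all matched elements. These targets were taken from pairs listed with IFN-γ, and only quantiles of at least 0.4 are listed. The change is therefore not independent of the selection and is a description.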
